A study of Homo sapiens with 4 samples.

Results

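Accessible chromatin was described around 8 genes for transcription factors of the prostate luminal epithelium, FOXA1, GATA2, GATA3, GRHL1, GRHL2, SPDEF, EHF and ELF3. The genes were chosen by name, not by their values. For each of them every peak interval in the gene body and 100 kb either side was taken. These are 8 of the 19689 protein-coding genes with an annotated transcription start site (TSS). Their windows held 223 of 149676 C4-2B intervals and 179 of 118728 C4-2BER intervals. They also held 134 of the 91160 sites where intervals of both lists overlapped.

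Luminal cells of the prostate make the secretions of the gland and depend on androgens, and many of their enhancers are bound at sites that pioneer factors have opened. FOXA1, a forkhead protein, is the best known of these factors, because it can bind its motif in closed chromatin. GATA2 and GATA3 are zinc finger proteins of the GATA family, and GATA2 is known for its part in the androgen response of prostate cells. GRHL1 and GRHL2 belong to the grainyhead family and maintain epithelial junction genes, and GRHL2 opens epithelial enhancers. SPDEF, EHF and ELF3 are epithelial members of the ETS family, with roles in secretory differentiation. Enhancers of such genes commonly lie outside the promoter, so the flanks were examined together with the start sites.

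The data came from ATAC-seq, which maps open chromatin by where Tn5 transposase can insert adapters. C4-2B is a human prostate adenocarcinoma cell line, for which the labels name no treatment. C4-2BER is a line derived from C4-2B by continuous exposure to enzalutamide, a drug against androgen signalling, and the study describes it as neuroendocrine-like. The 2 libraries of a line were pooled by the authors ahead of peak calling. Both lines were cultured in RPMI medium with serum, and per the study's methods enzalutamide was kept in the medium of C4-2BER. C4-2BER stands for a single derivation of the resistant state. A single merged list per line leaves no replicate error and no test between the lines, and all intervals printed here cover counting error only. Resistance, the drug present in culture and the separate growth of the lines cannot be told apart.

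The lists allowed the depth to be recovered, and C4-2B (30.2 M) was 1.20 times deeper than C4-2BER (25.2 M reads). Reads at a summit, also recovered from the lists, are those within the 200 bp around it. A scaled read ratio is the C4-2BER reads multiplied by 1.20 over the C4-2B reads, with an exact (Clopper-Pearson) 95% interval. It takes the strongest summit of each list at a site, and these 2 summits can lie apart. An interval is called shared when 1 bp or more of it lay in an interval of the other list and line-only when it did not. A line-only interval is one that was not called in the other line, and weak signal below the calling threshold is not in the lists. Intervals of a list were ordered by −log10 p, and the rank percentile gives the place in that order, where 100 is the strongest. A distal interval lies outside 2000 bp of every protein-coding TSS. The luminal and androgen-response marker genes KRT8, KRT18, HOXB13, KLK3, TMPRSS2 and FKBP5 had a promoter interval in both lists. So had 5 of 6 neuroendocrine markers, and the promoter of NEUROD1 had one in C4-2BER alone. From C4-2B to C4-2BER the rank of the KLK3 promoter went from 80.9 to 42.3, and that of NCAM1 from 43.8 to 77.6. By presence of a promoter interval, NEUROD1 alone of these genes differed between the lines. Positions are in hg38.

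Each of the 8 genes had a promoter interval in both lists, while many single intervals, promoter as well as distal, were called in one list alone. Of the 223 C4-2B intervals, 86 (38.6%, 95% Wilson interval 32.4 to 45.1) were C4-2B-only. Of the 179 C4-2BER intervals, 39 (21.8%, 95% interval 16.4 to 28.4) were C4-2BER-only. Over the whole lists these shares were 37.7% and 20.8%, so the windows together did not stand apart from the lists by the number of line-only intervals. Gene windows gave a lower background. Over 15744 genes with at least 10 intervals in each list, the median shares were 30.4% and 16.7%. All members except SPDEF lay above the C4-2B-only median, while FOXA1, SPDEF and ELF3 lay below the C4-2BER-only median. When equal numbers of top intervals were taken from both lists, the shares were 29.7% and 30.2%, beside 29.1% and 27.7% over those whole lists. Lists of equal length give nearly equal shares by construction, so this setting cannot show why the shares differed. With the C4-2B list scaled to the depth of C4-2BER, the shares in the windows were 38.4% and 22.9%. The whole lists then gave 37.7% and 20.8%. The cause of the surplus of C4-2B-only intervals was not tested. Of the distal intervals, 79 of 196 were found in C4-2B alone (40.3%) and 36 of 157 in C4-2BER alone (22.9%). All distal intervals of the lists gave 41.9% and 22.5%. Of the own-promoter intervals, 7 of 21 in C4-2B were C4-2B-only (33.3%, 95% interval 17.2 to 54.6). In C4-2BER 2 of 15 were C4-2BER-only (13.3%, 95% interval 3.74 to 37.9). Among all promoter intervals of the lists these shares were 16.2% and 13.6%.

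Strong line-only intervals were more unequal between the lists. Those with −log10 q no lower than 10 numbered 31 in C4-2B (13.9% of its intervals) and 9 in C4-2BER (5.03%). GRHL2 held 11 of the 31, GATA3 held 5 and GRHL1 held 4. On the other side GRHL1 held 4 of the 9 and ELF3 held 2. In the whole lists 14.2% and 3.92% of the intervals were line-only at this strength, a wider gap than in the windows.

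**Figure D1:**
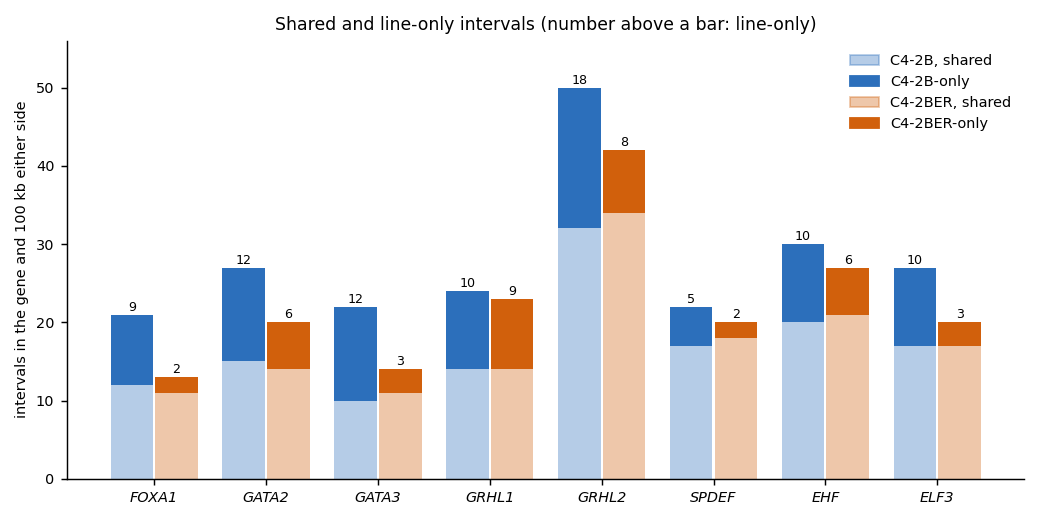
Number of intervals in each gene and 100 kb either side, in the C4-2B list (blue) and the C4-2BER list (orange). The pale part of a bar is shared, the dark part is line-only and its number stands above the bar. C4-2B-only intervals outnumbered C4-2BER-only ones at all 8 genes, for example 10 against 9 at GRHL1 and 12 against 3 at GATA3.

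The genes differed in how many intervals they held. GRHL2, the longest window at 377.3 kb, had 50 C4-2B and 42 C4-2BER intervals, and at least 99.2% of all genes had as few or fewer in either list. The other windows, of 206.5 to 250.6 kb, held 21 to 30 C4-2B and 13 to 27 C4-2BER intervals. GATA3 had the highest C4-2B-only share of the 8, 12 of 22 (54.5%, 95% interval 34.7 to 73.1). Among 15744 genes with at least 10 intervals in each list, 97.96% had a share as low or lower, and the median was 30.4%. GRHL1 had the highest C4-2BER-only share, 9 of 23 (39.1%, 95% interval 22.2 to 59.2), beside a median of 16.7% over those genes. Without 3 intervals of repeated DNA, described with that gene, it had 6 of 20 (30.0%), the same as GATA2. SPDEF had the lowest shares in both directions, 5 of 22 and 2 of 20.

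The DNA under the strongest distal line-only sites is shown for GATA3, GRHL1 and SPDEF, where that site was strong in both directions (−log10 q above 20), a choice made after the values were seen. Each line gives a stretch of the hg38 plus strand centred on the summit. Capitals mark a match to 1 of the 6 motifs searched on either strand. The forkhead motif was spelled TGTTTAC. The motif of GATA factors was spelled AGATAA. The grainyhead motif was the palindrome AACNNGTT, where N is any base. The motif searched for ETS proteins was GGAAGT, and for the homeobox protein HOXB13 it was CAATAAA. The last was a palindromic androgen response element, and none of the 6 is contained in another.
GATA3, C4-2B-only, chr10:8137884-8137984: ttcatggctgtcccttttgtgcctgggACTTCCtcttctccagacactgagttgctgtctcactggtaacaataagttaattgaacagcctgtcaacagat
GATA3, C4-2BER-only, chr10:8050698-8050798: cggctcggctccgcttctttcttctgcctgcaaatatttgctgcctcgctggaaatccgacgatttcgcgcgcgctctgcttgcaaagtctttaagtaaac
GRHL1, C4-2B-only, chr2:9900699-9900799: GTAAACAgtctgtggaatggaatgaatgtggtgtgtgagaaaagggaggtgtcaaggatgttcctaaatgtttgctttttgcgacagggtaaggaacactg
GRHL1, C4-2BER-only, chr2:10011833-10011933: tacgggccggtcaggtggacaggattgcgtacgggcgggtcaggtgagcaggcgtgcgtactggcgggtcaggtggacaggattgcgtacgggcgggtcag
SPDEF, C4-2B-only, chr6:34595866-34595966: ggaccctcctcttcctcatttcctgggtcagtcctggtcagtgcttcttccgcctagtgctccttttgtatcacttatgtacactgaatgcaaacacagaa
SPDEF, C4-2BER-only, chr6:34531962-34532062: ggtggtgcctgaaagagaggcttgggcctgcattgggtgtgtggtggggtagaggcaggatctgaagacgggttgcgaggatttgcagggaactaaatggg
An ETS match lay in the C4-2B-only site of GATA3 and a forkhead match at the edge of that of GRHL1. The other 4 sequences held no match. The C4-2BER-only site of GRHL1 is a tandem repeat, visible as a phrase that returns along the line.

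Own promoters, within 2000 bp of a start site, were taken up first. All 8 genes had a promoter interval in both lists, as did 77.7% of all protein-coding genes. The strongest promoter interval of each gene ranked between 67.2 and 97.9 in C4-2B and between 77.7 and 97.7 in C4-2BER. By rank, 5 of the 8 promoters were higher in C4-2BER and 3 were lower. Of the 15305 genes with a promoter interval in both lists, 9269 were higher and 6036 lower. The median difference of −log10 p rank was 1.96 points, beside 0.59 points over all genes with a promoter interval in both lists.

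The FOXA1 promoter had the largest difference of the 8. Its strongest interval held 139 reads at rank 67.2 in C4-2B (chr14:37594513-37595770) and 130 reads at rank 81.2 in C4-2BER (chr14:37594871-37596364). The difference of 14.0 points was as large as or larger than that of 92.5% of all genes. Its reads, scaled for depth, were 1.12 times those of C4-2B (95% interval 0.87 to 1.43), so the counts at the strongest summits did not differ beyond counting error. The summit lay 45 bp upstream of the start in C4-2B and 931 bp upstream in C4-2BER. The ratio thus does not compare reads at the same place. The local background, which enters the −log10 p, was 19.9 times the genome-wide floor in C4-2B against 18.1 times. In C4-2B the promoter was called as 2 intervals, and in C4-2BER as 1 interval across both.

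The promoters of GATA2 and SPDEF were weaker in C4-2BER. GATA2 held 188 reads at rank 86.2 in C4-2B and 113 reads at rank 79.1 in C4-2BER, a scaled ratio of 0.72 (95% interval 0.56 to 0.91). That interval lies inside the gene, at internal start sites (chr3:128487735-128489358 over both lists). Its strongest summit was 4.71 kb from the canonical start in C4-2B and 5.22 kb in C4-2BER, so these reads also come from different places. The most upstream start site, which is the canonical one, had an interval in C4-2B alone, at rank 35.4. SPDEF held 102 reads at rank 84.1 in C4-2B and 60 reads at rank 77.7 in C4-2BER at its start site (chr6:34555912-34556561), a scaled ratio of 0.70 (95% interval 0.50 to 0.98). By fold enrichment the SPDEF promoter ranked 0.27 points higher in C4-2BER instead of 6.38 lower.

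At GATA3 the start sites differed from each other. Its strongest promoter interval, 1.17 kb upstream of the canonical start, held 79 reads at rank 83.0 in C4-2B and 89 reads at rank 85.4 in C4-2BER. The canonical start itself had an interval in C4-2B alone (chr10:8054516-8054868, 30 reads, rank 29.5). The first annotated start, 9.27 kb upstream of the canonical one (chr10:8044993-8045495) held 11 C4-2B reads and 31 C4-2BER reads. Its rank was 0.08 in C4-2B, at the very bottom of that list, whereas C4-2BER had it at 49.2. The scaled ratio there was 3.37 (95% interval 1.65 to 7.44), the highest among the 134 shared sites.

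The strongest promoter intervals of GRHL1, GRHL2, EHF and ELF3 differed less. GRHL1 held 144 and 133 reads, at ranks 94.7 and 96.2 in C4-2B and C4-2BER. GRHL2 held 157 and 144 reads, at ranks 87.0 and 92.7. ELF3 held 200 and 186 reads and had the highest ranks of the 8, 97.9 and 97.7. EHF had 3 shared promoter sites, since its transcripts start at 10 annotated positions. The one at the first start had ranks of 84.7 and 84.5 in C4-2B and C4-2BER, while one 19.4 kb inside the gene ranked at 83.0 and 90.3. Thus the strongest EHF promoter was not the same start in both lists, and its difference of 5.60 points became −0.13 with the canonical start alone.

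**Figure D2:**
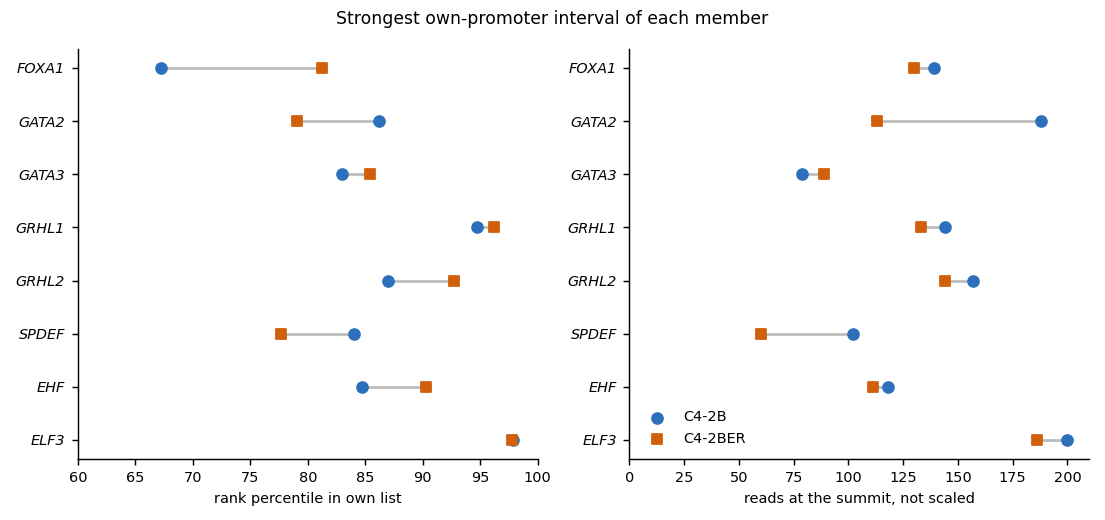
Strongest own-promoter interval of each gene in C4-2B (blue circles) and C4-2BER (orange squares). The left panel gives the rank percentile within the list on an axis that starts at 60, and the right panel gives reads at the summit, not scaled for depth. FOXA1 ranked 14.0 points higher in C4-2BER with 130 against 139 reads, whereas GATA2 and SPDEF were lower on both scales.

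Distal sites were followed gene by gene, beginning with the pioneer factor. FOXA1 (minus strand, chr14:37589552-37596059) had 21 C4-2B intervals, of which 9 were C4-2B-only, and 13 C4-2BER intervals, of which 2 were C4-2BER-only. The strongest C4-2B-only interval (chr14:37527430-37527692, in an intron of MIPOL1) had a −log10 q of 14.2 with 23 reads, and no C4-2BER-only interval reached 10. The shared sites of the 2 flanks differed in rank. Upstream, in TTC6, 4 of 5 shared sites ranked higher in C4-2BER, with a median difference of 21.6 points. Downstream, in and near MIPOL1, 1 of 5 ranked higher, with a median of −12.9 points. By calls, 4 of 10 C4-2B intervals upstream and 3 of 8 downstream were C4-2B-only, beside 37.7% of the whole list. C4-2BER-only were 0 of 6 C4-2BER intervals upstream and 2 of 7 downstream, beside 20.8%.

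The strongest distal site of FOXA1 was among those with fewer reads in C4-2BER. It lies 28.2 kb downstream of the start in an intron of MIPOL1 (chr14:37566626-37567470) and held 121 C4-2B reads and 63 C4-2BER reads, a scaled ratio of 0.62 (95% interval 0.45 to 0.85). A neighbouring site, 24.0 kb downstream (chr14:37571163-37571421), had 26 and 37 reads, a ratio of 1.70 (95% interval 1.00 to 2.93), and ranked 39.2 points higher. These neighbouring sites thus differed in opposite directions. The upstream sites held 18 to 50 reads in C4-2B, and for none of the 5 did the interval of the ratio exclude 1.

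GATA2 (minus strand, chr3:128479427-128493201) had 27 C4-2B intervals, 12 of them C4-2B-only, and 20 C4-2BER intervals, 6 of them C4-2BER-only. Its strongest distal site, 91.4 kb upstream (chr3:128584192-128584893), held 149 C4-2B reads and 106 C4-2BER reads, at ranks 99.4 and 97.0. That site was among the strongest of either list, and its scaled ratio was 0.85 (95% interval 0.66 to 1.10). The largest difference was at a weaker site 55.2 kb upstream (chr3:128547717-128548532). It held 31 C4-2B reads and 10 C4-2BER reads, a ratio of 0.39 (95% interval 0.17 to 0.81), and ranked 52.7 and 5.92. In the other direction, a site 13.6 kb upstream ranked 34.4 points higher in C4-2BER with 29 and 30 reads. The lncRNA GATA2-AS1 next to the gene held a site with 122 and 103 reads, a ratio of 1.01 (95% interval 0.77 to 1.32).

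GATA3 (plus strand, chr10:8045378-8075198) had the lowest median rank difference of the 8. Its 10 shared sites had a median difference of −23.4 points, and 0.394% of 15737 genes with at least 5 shared sites had a median as low or lower. Of its 8 shared distal sites, 7 ranked lower in C4-2BER, 6 of them by 20 points or more. The region downstream held 8 C4-2B intervals, 5 of them C4-2B-only, and 3 C4-2BER intervals, none of them C4-2BER-only. The strongest distal site of the C4-2B list, 83.2 kb downstream between genes (chr10:8137697-8138271), held 88 reads with a −log10 q of 83.5 at rank 93.9. The nearest C4-2BER interval lay 8692 bp away. Another C4-2B-only site, 90.0 kb downstream (chr10:8144388-8145096), held 90 reads with a −log10 q of 79.0. One more, 104.0 kb downstream (chr10:8158341-8159320), held 44 reads with a −log10 q of 25.1. These 3 sites form a row in the plot of intervals by distance, with nothing called opposite. Reads of C4-2BER at uncalled places are not in its list, so no ratio can be given for them.

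Upstream of GATA3 the shared sites lie in introns of TAF3. The one 103.5 kb upstream (chr10:7950780-7951537) held 61 C4-2B reads and 13 C4-2BER reads, a ratio of 0.26 (95% interval 0.13 to 0.47). The one 74.3 kb upstream held 39 and 11 reads, a ratio of 0.34 (95% interval 0.16 to 0.67). Against this pattern, the strongest distal site of the C4-2BER list was C4-2BER-only. It lies 3.94 kb upstream of the canonical start, inside an intron of a longer GATA3 transcript (chr10:8050427-8051072), and held 68 reads with a −log10 q of 23.8. The sites far from GATA3 thus favoured C4-2B, while near its canonical start there were intervals of either line alone.

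GRHL1 (plus strand, chr2:9951693-10002277) had 24 C4-2B intervals, 10 of them C4-2B-only, and 23 C4-2BER intervals, 9 of them C4-2BER-only. Its strongest C4-2B-only site, in an intron of TAF1B 50.9 kb upstream (chr2:9900593-9900947), held 45 reads with a −log10 q of 34.6. The strongest C4-2BER-only sites were 3 adjoining intervals between genes, 60.2 to 62.2 kb downstream of the start (chr2:10011096-10014295). They held 123, 104 and 90 reads, with −log10 q values of 36.5, 25.5 and 18.1. Their local background was 15.0 to 15.2 times the floor, whereas the C4-2B-only interval 528 bp before them (chr2:10009725-10010568, 48 reads) had 2.76 times.

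The DNA of these 3 intervals was unusual among the 402 intervals of the 8 windows. When each interval was compared with itself at shifts of 10 to 60 bases, 397 had under 60% identical bases at their best shift, with a median of 31.5%. The 3 GRHL1 intervals had 79.3%, 76.4% and 80.0%, at shifts of 29, 29 and 58 bases. They are tandem repeats with a unit of 29 bases and held 95, 49 and 35 CpG dinucleotides. How many copies each line carries, and how reads were placed among the copies, was not tested. Without them GRHL1 had 6 C4-2BER-only intervals of 20 (30.0%), and 6 strong C4-2BER-only intervals remained in the 8 windows in place of 9. The remaining 2 such repeats were C4-2B-only intervals in an intron of GRHL2, with −log10 q under 10.

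Among the shared sites of GRHL1, 8 of 14 ranked higher in C4-2BER, yet the lower ones differed more. A site in an intron of CYS1, 108.9 kb downstream (chr2:10060379-10060976), held 39 C4-2B reads and 12 C4-2BER reads, a ratio of 0.37 (95% interval 0.18 to 0.72). An intronic site of GRHL1 21.1 kb from its start held 80 and 33 reads, a ratio of 0.49 (95% interval 0.32 to 0.75). For 4 of the 14 sites the interval of the ratio lay below 1, and for none above. The strongest distal site, 145.9 kb downstream, held 77 and 72 reads and ranked 89.1 and 92.0.

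GRHL2 (plus strand, chr8:101492439-101669726) had fewer reads in C4-2BER at many of its sites. Of its 32 shared sites 26 ranked lower there by −log10 p, with a median difference of −8.17 points. By fold enrichment 17 ranked lower and 15 higher, with a median of −1.34 points. The interval of the read ratio lay below 1 at 16 of the 32 and above 1 at none. Within the gene 3 of 18 shared sites ranked higher. The largest difference was in an intron 80.5 kb from the start, with 79 C4-2B reads and 14 C4-2BER reads, a ratio of 0.21 (95% interval 0.11 to 0.38). Another intronic site, 51.1 kb from the start, held 92 and 19 reads, a ratio of 0.25 (95% interval 0.14 to 0.41). The strongest distal site, 53.8 kb upstream in a lncRNA gene, held 164 and 85 reads, a ratio of 0.62 (95% interval 0.47 to 0.81). It kept rank 90.9 in C4-2BER against 98.1. The strongest C4-2B-only interval lay 68.6 kb upstream with 53 reads, and the strongest C4-2BER-only one 122.9 kb inside the gene with 27 reads. The promoter interval at the start, with a ratio of 1.10 (95% interval 0.87 to 1.39), did not share the lower values of the introns. A second shared promoter site, 1505 bp inside the gene (chr8:101493686-101494251), held 124 and 77 reads. Its ratio was 0.743 (95% interval 0.552 to 0.995), and it ranked 9.68 points lower in C4-2BER. Of the 4 C4-2B promoter intervals of GRHL2, 2 were C4-2B-only, beside 16.2% of all C4-2B promoter intervals.

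SPDEF (minus strand, chr6:34537802-34556333) had strong line-only sites on both sides. The C4-2B-only one lies in an intron of ILRUN 39.6 kb upstream (chr6:34595398-34596268) and held 127 reads with a −log10 q of 58.5. The C4-2BER-only one lies in an intron of PACSIN1 24.3 kb downstream (chr6:34531654-34532610) and held 138 reads with a −log10 q of 61.3, at rank 91.8. It was the strongest distal interval of the gene in the C4-2BER list. The nearest C4-2B interval, 1714 bp away in a PACSIN1 exon, held 49 reads and was C4-2B-only.

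The sites next to the C4-2B-only one in ILRUN were shared but much lower. Those 37.7, 42.6 and 46.7 kb upstream held 63, 128 and 131 C4-2B reads, against 19, 37 and 39 C4-2BER reads. Their ratios were 0.346 to 0.361, and no interval of these ratios reached 1. The local background there was 6.75 to 10.9 times the floor in C4-2B and 2.26 to 3.31 times in C4-2BER, so reads were fewer around the summits as well as at them. Rank by fold enrichment, which divides by that background, put one of the 3 sites lower and the others higher in C4-2BER. Sites 53.4 kb upstream (66 and 53 reads) and 19.6 kb downstream (142 and 108 reads) had intervals of the ratio that included 1.

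EHF (plus strand, chr11:34621093-34663288) had the highest share of sites with fewer reads in C4-2BER. Of its 20 shared sites 14 ranked lower in C4-2BER, 8 of them by 20 points or more and none higher by as much. Its median difference was −12.0 points, and 4.39% of genes had a median as low or lower. By fold enrichment 11 of the 20 ranked lower, with a median of −4.58 points. The interval of the read ratio lay below 1 at 12 of the 20 and above 1 at none. A site 18.6 kb upstream (chr11:34602156-34602651) held 49 C4-2B reads and 11 C4-2BER reads, a ratio of 0.27 (95% interval 0.13 to 0.52). It ranked 75.9 and 7.14, the largest difference of all 134 shared sites. Sites 60.4 kb upstream (40 and 11 reads) and 136.0 kb downstream (66 and 15 reads) had ratios of 0.33 and 0.27. The strongest distal site, 47.2 kb downstream (chr11:34667765-34668697), held 169 and 108 reads and ranked 90.9 and 91.1. No line-only site of EHF was as strong as those of GATA3 or SPDEF. The strongest C4-2B-only one, 25.5 kb upstream, had a −log10 q of 22.9 and the strongest C4-2BER-only one 5.89. ELF5, a related ETS gene, lies within the EHF window, so its intervals are not independent of those given here.

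ELF3 (plus strand, chr1:202007945-202017183), the remaining ETS factor, had strong sites in both lists. It had 27 C4-2B intervals, 10 of them C4-2B-only, and 20 C4-2BER intervals, 3 of them C4-2BER-only. Its 16 shared sites had the highest median rank of the 8 genes in both lists, 88.7 in C4-2B and 81.5 in C4-2BER, and 8 of the 16 were higher in C4-2BER. The interval of the read ratio lay below 1 at 3 sites and above 1 at 3. A site 36.7 kb downstream (chr1:202046768-202047461) held 92 and 29 reads, a ratio of 0.38 (95% interval 0.24 to 0.58). A site 97.9 kb downstream (chr1:202107331-202108773) held 36 and 70 reads, a ratio of 2.33 (95% interval 1.54 to 3.58). A C4-2BER-only interval of 55 reads lay close by, 95.4 kb downstream. The promoter of the neighbouring gene LMOD1, 64.0 kb upstream, held 59 and 107 reads, a ratio of 2.17 (95% interval 1.57 to 3.04). Sites on either side of ELF3 thus held more reads in C4-2BER, beside others that held fewer.

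**Figure D3:**
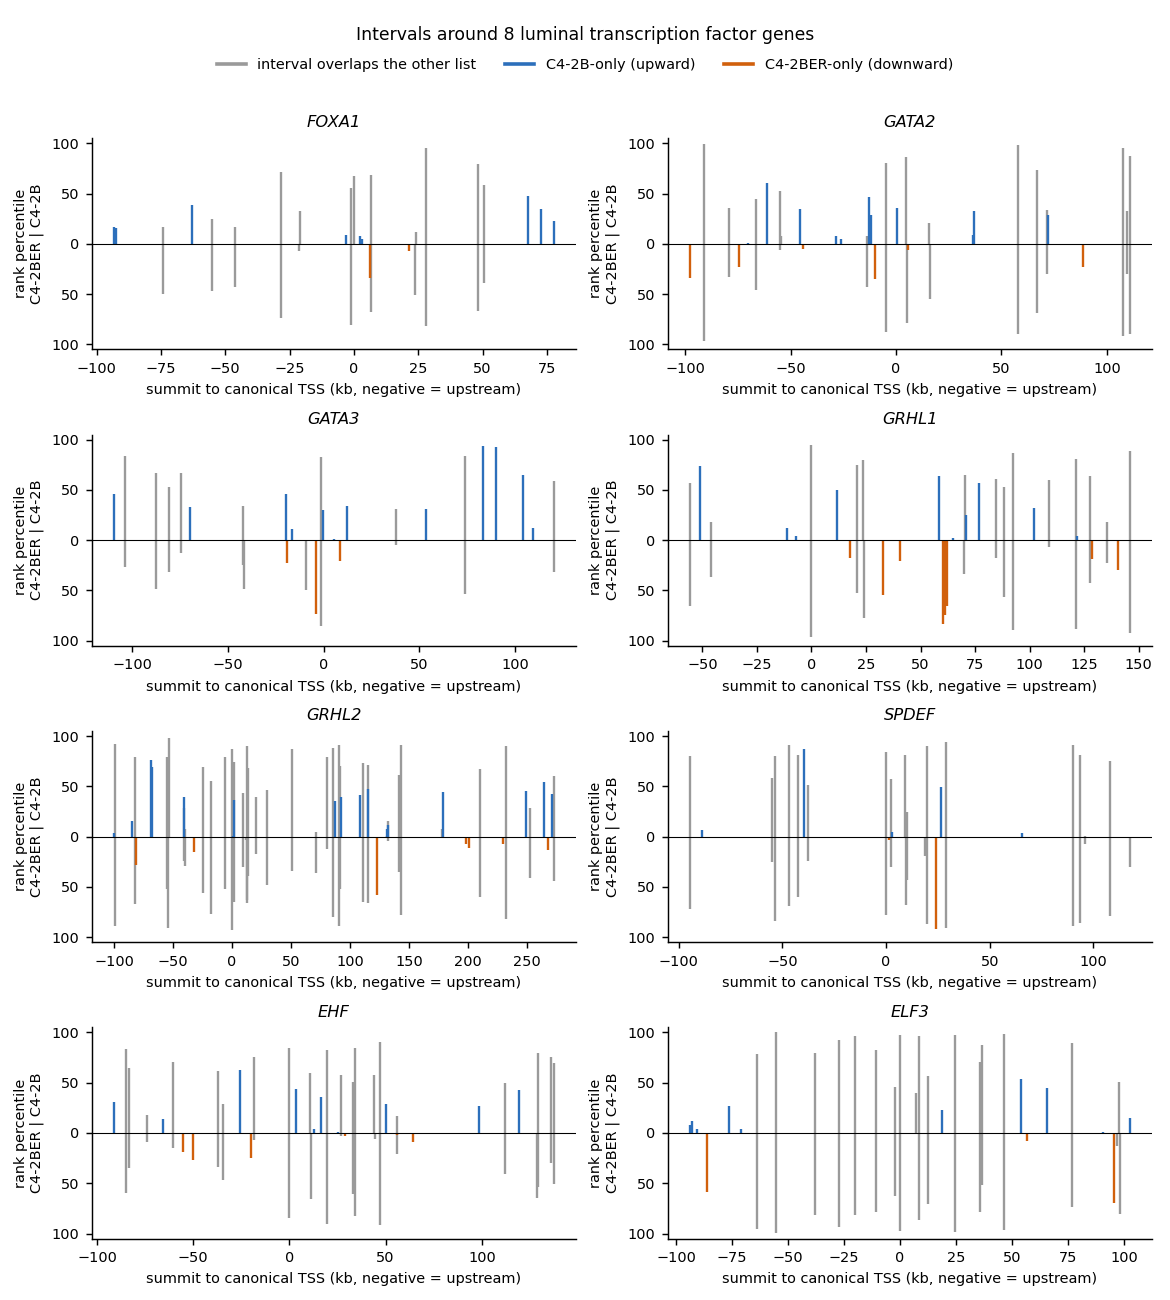
Every interval of the 8 windows by the distance of its summit from the canonical TSS (x axis, kb, negative upstream) and its rank percentile (y axis, C4-2B upward and C4-2BER downward). Grey lines are intervals that overlap the other list, blue are C4-2B-only and orange C4-2BER-only. The C4-2B-only sites 83.2 and 90.0 kb downstream of GATA3, the C4-2BER-only group 60.2 to 62.2 kb downstream of GRHL1 and the pair of opposite sites at SPDEF stand out.

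Taking the shared sites of the 8 genes together, 48 of 134 ranked higher in C4-2BER (35.8%, 95% interval 28.2 to 44.2), beside 42.5% of all shared sites. The median difference was −4.16 points, beside −1.89 over all. A difference of 20 points or more was found upward at 12 sites (9.0%) and downward at 34 (25.4%), beside 8.94% and 20.3% of all shared sites. Of the 115 distal ones 37 ranked higher (32.2%, 95% interval 24.3 to 41.2) with a median of −7.39 points. All distal shared sites gave 38.5% and −4.57 points. The shares over all sites, 42.5% and 38.5%, lay inside the intervals of the windows, so neither share differed beyond counting error. Of the 13 own-promoter sites 8 ranked higher (61.5%), with a median of 2.40 points. Over all shared promoter sites these values were 57.1% and 0.54 points. Leaving out each gene in turn gave 33.3% to 41.2% higher, the last without GRHL2. Ranked by fold enrichment instead, 47.8% of the members' sites and 47.1% of all shared sites were higher, so the difference from the rest was absent on that scale.

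By reads at the summits the windows differed further from the rest. After scaling for depth, the interval of the ratio lay below 1 at 50 of the 134 sites (37.3%) and above 1 at 7 (5.22%). Over all shared sites these shares were 21.4% and 5.33%. The median ratio was 0.779 in the 8 windows and 0.900 over all. EHF and GRHL2 gave 28 of the 50. The share of sites called in this way depends on how many reads a summit holds, and the sites of these windows were stronger than most, with a median C4-2B rank of 70.8 beside 65.9 over all.

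**Figure D4:**
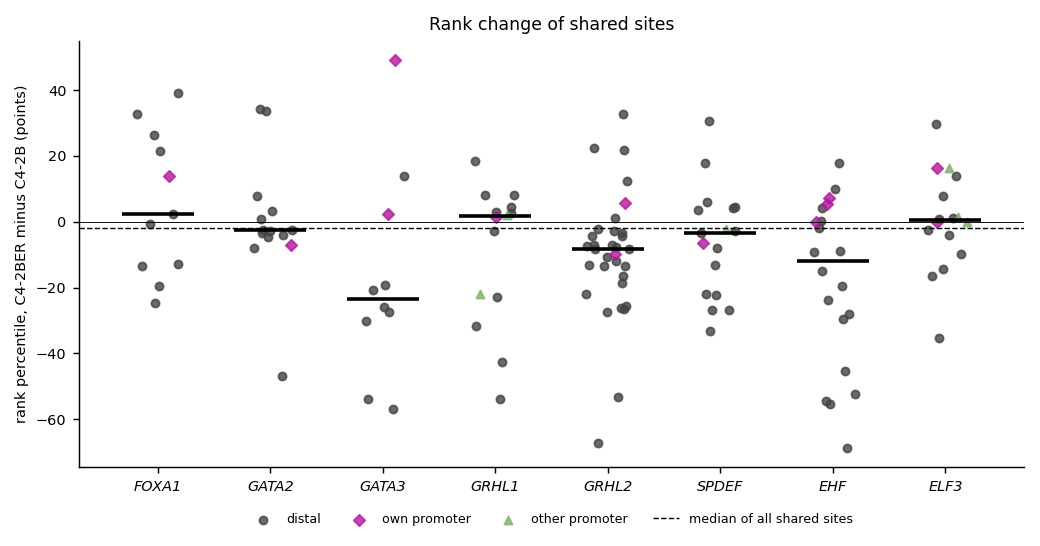
Difference of rank percentile, C4-2BER minus C4-2B, of each of the 134 shared sites (y axis, points) by gene. Circles are distal sites, diamonds own promoters and triangles promoters of other genes, and sideways scatter has no meaning. Black bars are gene medians and the dashed line is the median of all shared sites, −1.89 points. GATA3 and EHF had the lowest medians, −23.4 and −12.0 points.

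The letters under the distal summits were searched within 100 bp for motifs of the members' own families and of partners. Among the 79 distal C4-2B-only intervals, the forkhead motif was found in 8 (10.1%, 95% interval 5.22 to 18.7), beside 12.5% of all distal C4-2B-only intervals. Among the 36 distal C4-2BER-only intervals it was found in 1, at GATA3 (2.78%, 95% interval 0.49 to 14.2), beside 6.61%. The GATA motif was found in 13.9% of either set, beside 14.8% and 10.2%. The 8 forkhead matches lay at GRHL2 (5), GRHL1 (2) and GATA2 (1), and none of the 9 distal C4-2B-only intervals of FOXA1 itself held one. Of the distal shared intervals of FOXA1, the motif was in 2 of 10 in the C4-2B list and 4 of 10 in the C4-2BER list, beside 9.87% and 9.20% of all such intervals.

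The grainyhead motif was found in 11 of 117 shared distal C4-2B intervals (9.40%, 95% interval 5.33 to 16.1) and in 2 of the 79 C4-2B-only ones (2.53%), beside 6.78% and 6.05% of all such intervals. Of the 11, 4 lay at GRHL2 and 4 at SPDEF. The ETS motif was found in 9 of the 117 (7.69%, 95% interval 4.10 to 14.0), beside 14.9% of all shared distal C4-2B intervals, and in 11 of the 79 (13.9%), of which 4 lay at GATA3 and 3 at ELF3. The androgen response element occurred in 3 of the 79 C4-2B-only intervals (3.8%), beside 2.90% of all. None of the 36 C4-2BER-only ones held it, with an upper Wilson bound of 9.64%, beside 0.247% of all. HOXB13 matches were found in 2.56% to 3.8% of these 3 sets. Apart from the ETS share of shared intervals, the share over all distal intervals lay inside the interval of the windows in each set shown. The ETS share depended on the set and the window. In the C4-2BER list 11 of 121 shared distal intervals had the motif (9.09%, 95% interval 5.15 to 15.5), beside 14.7%. All distal C4-2BER intervals of the windows gave 13 of 157 (8.28%, 95% interval 4.90 to 13.7), beside 14.2%. Within 250 bp, the shared C4-2B intervals gave 22.2% (95% interval 15.6 to 30.6) beside 29.2%, and all distal C4-2BER intervals gave 20.4% (95% interval 14.8 to 27.4) beside 28.4%.

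**Figure D5:**
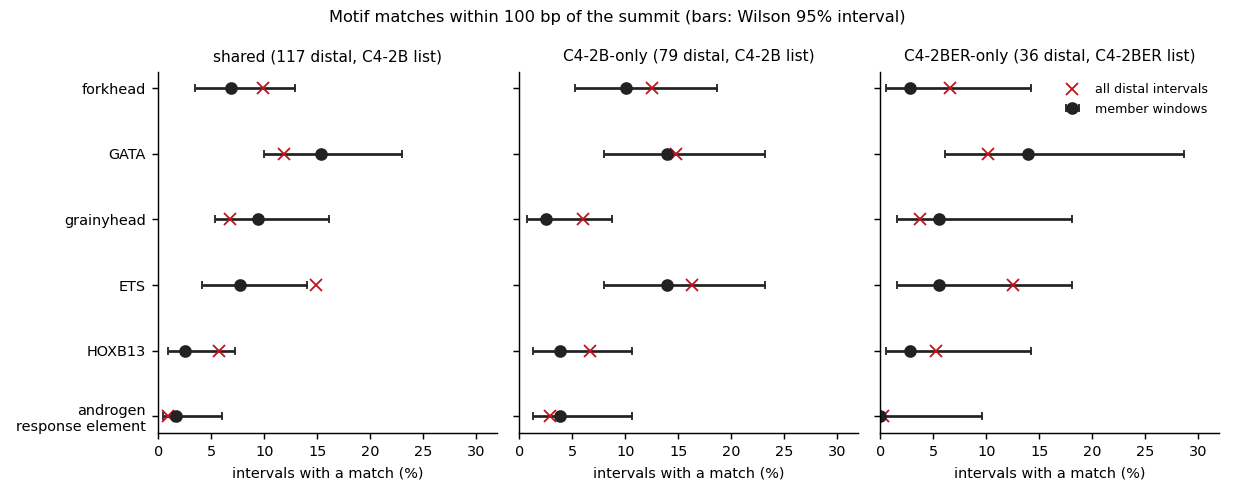
Share of distal intervals with a motif within 100 bp of the summit (x axis, %), in the 8 windows (black points with 95% Wilson intervals) and over all distal intervals of the same kind (red crosses). Panels show the 117 shared and 79 C4-2B-only intervals of the C4-2B list and the 36 C4-2BER-only intervals of the C4-2BER list. Only for ETS in shared intervals, 7.69% beside 14.9%, did the cross fall outside the bar.

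Finally, relatives of the members were set beside them. Of FOXA2, FOXA3, GATA1, GATA4, GATA5, GATA6, GRHL3 and ELF5, 6 had a promoter interval in both lists. GATA4 had one in C4-2BER alone, with 38 reads, and GATA1 in neither. Of the 6, the promoters of 4 ranked higher in C4-2BER and those of GATA6 and ELF5 lower. The GRHL3 promoter differed most, with 36 reads at rank 67.3 in C4-2B and 61 reads at rank 86.8 in C4-2BER. In the windows of the relatives 56 of 176 C4-2B intervals (31.8%) and 42 of 165 C4-2BER intervals (25.5%) were line-only. Thus the relatives had a smaller C4-2B-only share and a larger C4-2BER-only share than the members, a difference that was not tested. The genes most like FOXA1 in promoter ranks and line-only shares, among 13318 compared, were TSPAN18, ARPIN and ABCG2. TSPAN18 lay closest, with promoter ranks of 69.4 and 82.4 and line-only shares of 41.9% and 14.3%.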

How the data were processed

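ATAC-seq libraries of C4-2B and C4-2BER were analysed from 1 deposited narrowPeak list per line. According to the study's methods, the authors trimmed reads with cutadapt, aligned them to hg38 with Bowtie2, removed low-quality alignments and duplicates, merged the 2 libraries of a line and called peaks with MACS2. Its version is not given in the sources used here, and its printed shift has no minus sign, although a negative shift is usual for transposase cuts. The deposited fold enrichment, −log10 p, −log10 q and summit offset were used as the authors' caller wrote them.

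Rows of 1 interval were collapsed to the strongest summit by −log10 p. Summit reads and background were recovered from fold enrichment and the Poisson p (100% of summits within 0.001 of the deposited −log10 p). The lowest C4-2B summit had 8 reads and the lowest C4-2BER summit 7, and weaker places were not called. Genes came from GENCODE release 44. Any TSS of a protein-coding transcript defined a promoter. Shares have Wilson and read ratios exact 95% intervals, for counting error only. No test between lines was possible. Sites named singly were, for each gene, the strongest promoter, distal and line-only interval of each list and the shared distal sites with the largest rank differences, and further sites were added after their values were seen. The calculations were tested on simulated data. Some genes of the marker list are not reported here. The genes and lists were chosen with earlier results of these data known. Python 3.11.15, numpy 2.4.6, scipy 1.17.1, pandas 2.3.3 and matplotlib 3.10.9 were used.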

Additional observations from a re-analysis of the deposited data

How the results depend on the processing

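No paired analysis was possible because the libraries of a line were merged before peaks were called, and for the same reason no replicate could be left out. The share of C4-2B intervals in the 8 windows that were C4-2B-only was 29.65% with equal numbers of top intervals, 26.51% with the top 50000 of each list and 47.98% with a reciprocal overlap of 50%. The whole list gave 29.1%, 28.6% and 46.2%. The C4-2BER-only share was 30.17% with equal numbers, 35.2% with the reciprocal overlap and 29.05% with summits within 200 bp, and the whole list gave 27.7%, 32.1% and 26.7%. The share of shared sites ranked higher in C4-2BER was 27.85% at a −log10 q of 10 or more, 44.54% with equal numbers, 50.82% with the top 50000, 45.52% with ranks among shared sites alone, 47.76% by fold enrichment and 27.61% by scaled reads. The whole lists gave 33.4%, 56.9%, 58.8%, 54.5%, 47.1% and 39.8%. The cause of these shifts was not tested, apart from fewer intervals entering the shorter lists. The SPDEF promoter difference was 0.268 points by fold enrichment, and that of EHF was -0.1319 with a 1000 bp promoter and with the canonical TSS alone. Promoter intervals in both lists were found for 8 genes, and for 7 with the canonical TSS alone. Leaving out tandem repeats, an alternative chosen after seeing the data, gave a C4-2BER-only share of 20.5%. Without replicates, and with no signal outside called intervals, differences near the calling threshold cannot be resolved.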
